A study of Mus musculus with 10 samples.

Results

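The integrins and the core of the focal adhesion were followed as a set of 41 genes, 26 integrin chains and 15 adaptor proteins, taken by gene symbol. The array carried 62 features (probe spots) for them out of 62976. Features were tested if 2 or more arrays read them above that array's own 40th percentile, and 54 features of 36 members met this, among 16650 genes in all. The other 5 members, Itga2, Itgad, Itgae, Itgb6 and Fermt1, had no feature that passed and are given by their levels only.

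Total RNA of cultured mouse cells was measured on 10 one-colour (Cy3) Agilent arrays. The cells on 8 of them were induced embryonic Sertoli-like cells, or ieSCs. Their starting cells were tail tip fibroblasts (TTFs) of females for 4 arrays and embryonic fibroblasts (MEFs) for the other 4, and 2 arrays carried MEFs without a transgene. Both kinds of ieSC carried transgenes for Nr5a1, Wt1, Dmrt1, Gata4 and Sox9 and were taken 2 weeks after doxycycline (dox) was removed, and the MEFs were taken after 2 weeks of culture. All 3 groups shared the strain background (Congenic, homo R26-M2rtTA, which places a dox-controlled activator of transgenes at a widely active locus) and the growth medium without dox (F12/DMEM). Sertoli cells are the somatic cells that enclose and nourish germ cells in the testis, and the series compared the ieSCs with the fibroblasts. Each kind of ieSC had samples 1 and 2 with 2 arrays each, and the 2 MEF arrays share 1 name. Nothing in the labels places arrays of one name, or samples 1 and 2, in separate cultures or animals, so the p-values measure the spread between these arrays, which may be partly technical. TTFs themselves were not analysed here, so the TTF-derived cells were compared with MEFs and not with their own source cells.

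Integrins are pairs of 1 alpha and 1 beta chain that span the cell membrane and hold the cell to the matrix around it. The alpha chain largely sets which ligand is bound: one family binds collagens, one binds laminins of the basement membrane, one binds the Arg-Gly-Asp (RGD) motif of fibronectin and vitronectin, and one is made by leukocytes for contact with other cells. Inside the cell, talin and kindlin bind the beta tail and switch the integrin on, and the ILK, PINCH and parvin proteins, vinculin, paxillin, zyxin, p130Cas (Bcar1) and focal adhesion kinase (Ptk2) tie it to actin and to signalling. Sertoli cells rest on a laminin-rich basement membrane, where the alpha6 chain with beta1 is a known receptor.

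Levels are log2 array intensities as deposited. They carry no detection flag, and the 40th percentile, at 4.988 to 5.023, is used here as the start of the dim end of an array. Against a level in the dim end, a log2 difference holds on the deposited scale only and does not give a ratio of transcripts. Differences are given as log2 ± SE with a two-sided adjusted p from limma, with Benjamini-Hochberg adjustment over the 16650 genes and a threshold of 0.05. A gene stands for its brightest kept feature, and levels of different genes cannot be set against each other. Array values are listed as sample 1, sample 1, sample 2, sample 2.

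The cells were labelled by origin, and markers of the labels were measured beside the members. Of the 6 Sertoli markers tested, Wt1, Dhh, Tesc and Gatm rose in ieSCs, Sox9 and Gata4 fell (a transgene's RNA and the cell's own were not separated), and Amh lay in the dim end in all groups. All 5 fibroblast markers fell, by 4.76 to 12.3 on the log2 scale, where 23.6% of all genes tested were lower at the same threshold. Fap and Twist1 were in the dim end in both kinds of ieSC and passed the filter only through the MEF arrays. For these 2 markers a fall was built into the selection.

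Most members differed between ieSCs and MEFs. With the mean of both kinds of ieSC set against MEF, 30 of the 36 tested members were called, 11 higher and 19 lower, where 49.5% of all genes tested were called, 25.9% higher and 23.6% lower. The median difference was -0.677 over the members and 0.0851 over all genes. Of the 22 integrin chains tested, 7 rose and 12 fell, and of the 14 adaptors 4 rose and 7 fell. Among those that fell, Itga9, Itgax and Parvb passed the filter only through the MEF arrays. For these genes a fall was built into the selection. A difference of at least 2-fold was reached by 25 members, against 26.2% of all genes. In the MEF-derived ieSCs alone, 11 members were higher and 16 lower than in MEF (of all genes, 27.2% were higher and 24.0% lower, 51.2% in all), and in the TTF-derived ieSCs 10 were higher and 19 lower (of all genes, 23.3% were higher and 21.9% lower, 45.1% in all). Both of these comparisons used the same 2 MEF arrays. The spread between MEF samples was not measured, since both arrays carry 1 name, and the fit takes it to equal that between ieSC samples.

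**Figure D1:**
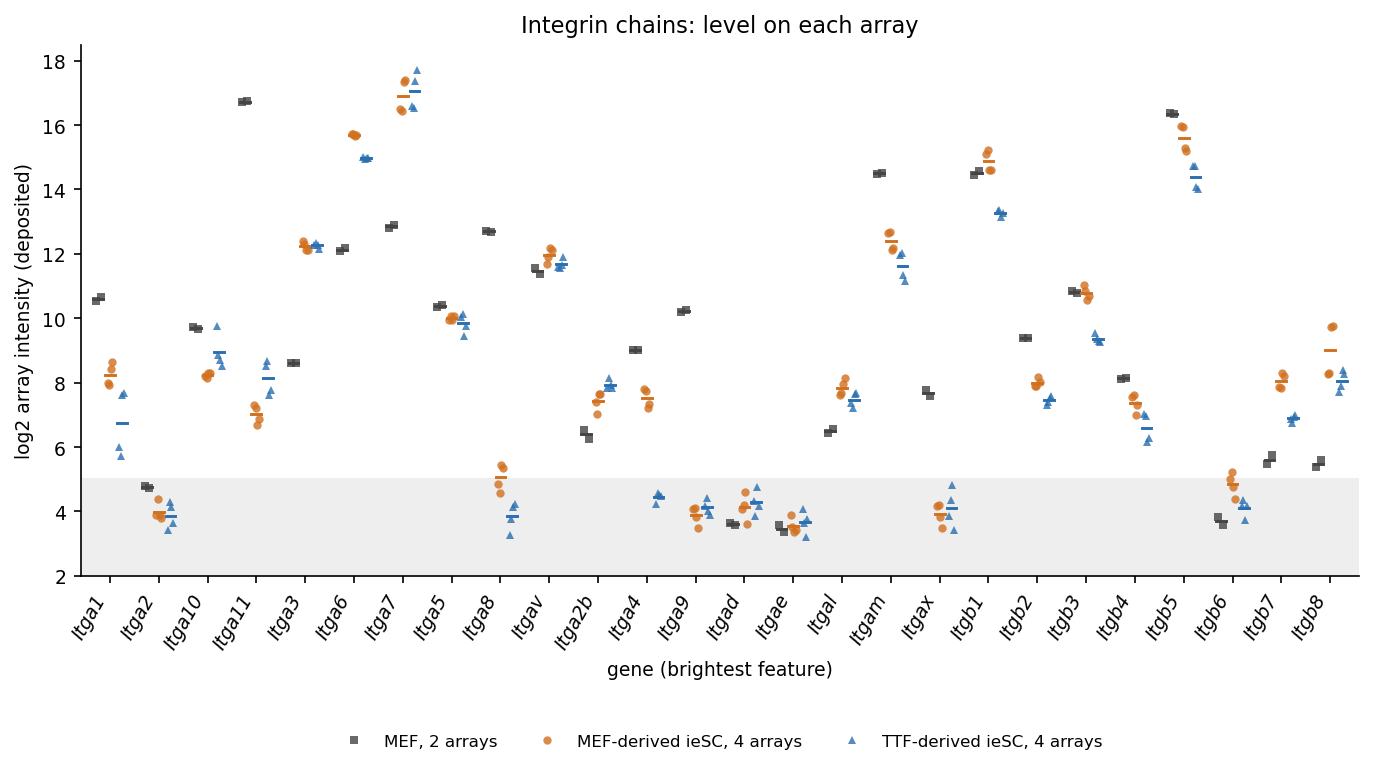
Log2 array intensity (vertical axis) of the 26 integrin chains on every array, taking each gene's brightest feature. Squares are the 2 MEF arrays, circles the 4 MEF-derived and triangles the 4 TTF-derived ieSC arrays, bars are group means, and the grey band is the dim end below about 5.02. Itga3, Itga6 and Itga7 stand above both MEF arrays on all 8 ieSC arrays, while Itga8, Itga9 and Itgax reach the grey band or its edge in ieSCs.

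Promoters are shown for the members with the 3 largest falls and the 2 largest rises among those with a promoter entry. Size was taken from the mean of both kinds of ieSC on the deposited scale. Itga7, with the largest rise of any member, and Itga6, whose rise exceeded that of Itgb8, had no entry. RefSeq promoters (GRCm38.p6) were found for 28 of the 41 symbols. Each is 300 bases long, 250 before and 50 after the start of the gene, and is printed 5′ to 3′ on the gene's strand in lower case. Capitals mark matches, on either strand, to any of 7 motifs. GGGCGG is the GC box of widely active promoters, and TATAAA is the TATA box. AGATAA is a site of GATA factors and AACAAT one of SOX factors, the families of the Gata4 and Sox9 transgenes, while AAGGTCA is the site of Nr5a1. GGAATG is the site of TEAD factors, the partners of YAP, and the CArG box is that of serum response factor.
Itga11: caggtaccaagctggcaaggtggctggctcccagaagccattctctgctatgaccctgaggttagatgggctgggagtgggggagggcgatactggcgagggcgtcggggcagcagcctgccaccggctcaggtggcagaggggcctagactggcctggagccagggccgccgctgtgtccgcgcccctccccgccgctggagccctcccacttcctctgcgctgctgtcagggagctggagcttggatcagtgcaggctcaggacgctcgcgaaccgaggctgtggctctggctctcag
Itga8: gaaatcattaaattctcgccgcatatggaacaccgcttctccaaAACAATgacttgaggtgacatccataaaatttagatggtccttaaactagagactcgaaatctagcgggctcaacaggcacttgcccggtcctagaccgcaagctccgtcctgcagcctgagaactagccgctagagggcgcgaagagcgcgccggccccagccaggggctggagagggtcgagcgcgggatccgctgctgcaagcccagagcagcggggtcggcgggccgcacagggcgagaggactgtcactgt
Itga9: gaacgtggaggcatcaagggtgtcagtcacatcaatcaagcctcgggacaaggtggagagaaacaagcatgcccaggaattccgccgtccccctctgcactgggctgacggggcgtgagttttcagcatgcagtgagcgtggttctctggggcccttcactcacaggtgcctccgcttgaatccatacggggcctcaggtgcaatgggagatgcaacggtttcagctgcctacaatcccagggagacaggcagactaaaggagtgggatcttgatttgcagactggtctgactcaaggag
Itga3: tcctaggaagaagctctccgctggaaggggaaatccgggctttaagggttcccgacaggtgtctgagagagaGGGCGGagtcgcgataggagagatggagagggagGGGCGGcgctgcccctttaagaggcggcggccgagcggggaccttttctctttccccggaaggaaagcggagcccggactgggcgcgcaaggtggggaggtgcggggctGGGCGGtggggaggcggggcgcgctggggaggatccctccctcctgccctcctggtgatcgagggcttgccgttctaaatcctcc
Itgb8: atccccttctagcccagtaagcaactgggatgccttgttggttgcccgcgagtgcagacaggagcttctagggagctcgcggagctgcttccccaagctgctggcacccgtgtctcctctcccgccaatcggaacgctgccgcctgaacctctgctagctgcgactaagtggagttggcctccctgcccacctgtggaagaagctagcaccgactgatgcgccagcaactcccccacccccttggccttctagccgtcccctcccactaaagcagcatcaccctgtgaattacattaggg

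The windows lie at chr9:62677605-62677904 on the plus strand (Itga11), chr2:12301895-12302194 on the minus strand (Itga8), chr9:118711442-118711741 on the plus strand (Itga9), chr11:95076665-95076964 on the minus strand (Itga3) and chr12:119238227-119238526 on the minus strand (Itgb8). Itga3 held 3 GC boxes, at positions 73, 107 and 216 of the window, and Itga8 held 1 SOX site at position 45. No searched motif matched in the other 3 windows. The first entry of each gene is shown, and Itga3 has a second, with 1 GC box and 5 CG pairs. Over all 32851 promoters of the table, 35.7% held a GC box and 10.7% the SOX site, so neither kind of match is rare. The number of CG pairs was 16 in Itga11, 23 in Itga8, 10 in Itga9, 24 in Itga3 and 13 in Itgb8, against a median of 7 over all promoters. A match is a run of letters in the window and says nothing of a bound factor.

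The laminin-binding alpha chains were the group that rose together. All 3 were called higher in each kind of ieSC, by 3.21 to 4.13 on the log2 scale for the mean of both kinds, and every ieSC array lay above both MEF arrays for each of the 3.

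Itga3 encodes alpha3, which pairs with beta1 to bind laminins of epithelial basement membranes. Its level was 8.61 and 8.6 on the MEF arrays, 12.4, 12.3, 12.11 and 12.11 on the MEF-derived ieSC arrays, and 12.29, 12.34, 12.29 and 12.14 on the TTF-derived ones. The 8 ieSC arrays span a narrow range well clear of MEF, and the difference was 3.64 ± 0.13 (adjusted p = 3.43e-08), or 12.5-fold on the intensity scale. The kinds of ieSC differed by 0.03 ± 0.11 (TTF-derived minus MEF-derived, adjusted p = 0.86).

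Itga6 encodes alpha6, the laminin receptor chain that pairs with beta1 or beta4 and marks many stem and epithelial cells. It read 12.09 and 12.17 on the MEF arrays, 15.71, 15.72, 15.66 and 15.68 on the MEF-derived and 15, 14.96, 14.99 and 14.99 on the TTF-derived arrays. The 3 groups were fully separate, with the MEF-derived cells the highest. The rise over MEF was 3.21 ± 0.09 (adjusted p = 8.62e-09, 9.25-fold), and TTF-derived minus MEF-derived was -0.71 ± 0.08 (adjusted p = 0.000135).

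Itga7, which encodes the laminin receptor chain best known from skeletal muscle, had the largest rise of any member. Its level was 12.81 and 12.9 in MEF, 16.5, 16.43, 17.34 and 17.4 in MEF-derived and 16.58, 16.53, 17.36 and 17.71 in TTF-derived ieSCs. Every ieSC array was above both MEF arrays, and in both kinds of ieSC the arrays of sample 2 were above those of sample 1. The difference from MEF was 4.13 ± 0.38 (adjusted p = 1.71e-05, 17.5-fold). Of the 4 skeletal muscle markers tested, 2 were lower in ieSCs and the other 2 were not called.

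The collagen-binding alpha chains went the other way. Of the 4, Itga1, Itga10 and Itga11 were called lower for the mean of both kinds of ieSC than in MEF, and Itga2 lay in the dim end in all groups, with means of 4.76 (MEF), 3.99 (MEF-derived) and 3.87 (TTF-derived).

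Itga11 encodes alpha11, the fibrillar collagen receptor chain of fibroblasts and other mesenchymal cells. It read 16.71 and 16.75 on the MEF arrays, 7.3, 7.21, 6.68 and 6.87 on the MEF-derived arrays and 8.53, 8.66, 7.62 and 7.76 on the TTF-derived arrays. No ieSC array came near the MEF level, and each TTF-derived array was above each MEF-derived one. The difference of both kinds from MEF was -9.15 ± 0.3 (adjusted p = 2.38e-08). Between the kinds of ieSC the difference was 1.13 ± 0.27 (adjusted p = 0.00931), and without sample 1 of the TTF-derived cells it was 0.67 (adjusted p = 0.0304), while without sample 2 of the MEF-derived cells it was 0.88 and no longer called (adjusted p = 0.0642).

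Itga1 encodes alpha1, a receptor chain for collagen IV of basement membranes and for fibrillar collagens. It measured 10.55 and 10.66 in MEF, 7.98, 7.94, 8.44 and 8.64 in MEF-derived and 5.99, 5.72, 7.61 and 7.69 in TTF-derived ieSCs. Each ieSC array was below MEF, and the TTF-derived samples stood apart from each other, with sample 2 higher than sample 1 by 1.8. The difference from MEF was -3.1 ± 0.52 (adjusted p = 0.00082). TTF-derived minus MEF-derived was -1.5 ± 0.46 (adjusted p = 0.0307), but -0.6 without TTF-derived sample 1 (adjusted p = 0.0677) and -2.39 without TTF-derived sample 2 (adjusted p = 0.000369), so these samples decide its size. The call was also lost without MEF-derived sample 1 or sample 2 (-1.21), TTF-derived array 1a (adjusted p = 0.0535) or MEF-derived array 2b (0.0539). The second Itga1 feature was not called between the kinds (-0.49 ± 0.26, adjusted p = 0.191 over all kept features). Nor was the mean of both features (-1.0, adjusted p = 0.0578).

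Itga10 encodes alpha10, a collagen receptor chain of cartilage. It read 9.74 and 9.67 in MEF, 8.2, 8.13, 8.31 and 8.3 in MEF-derived and 9.76, 8.87, 8.71 and 8.52 in TTF-derived cells. The MEF-derived arrays were all below MEF, whereas 1 TTF-derived array was level with it. Itga10 was called lower in MEF-derived cells (-1.47 ± 0.43, adjusted p = 0.0181) and not in TTF-derived cells (-0.74 ± 0.43, adjusted p = 0.202). The mean difference of -1.1 ± 0.39 passed narrowly (adjusted p = 0.0428) and was lost in 11 of 24 alternatives. Leaving out single arrays ended the call for either MEF array (adjusted p = 0.0927 without array a and 0.0768 without array b), for TTF-derived arrays 2a (0.0755) and 2b (0.0736), and for MEF-derived arrays 1a (0.0563), 1b (0.0591), 2a (0.0672) and 2b (0.0637), and so did leaving out MEF-derived sample 1 (0.0558). A second feature of Itga10 gave -1.16 ± 0.21 (adjusted p = 0.00129 over all kept features). That feature was called lower in TTF-derived cells too (-0.9 ± 0.23, adjusted p = 0.01 over all kept features). In TTF-derived cells the mean of both features also passed (-0.82, adjusted p = 0.0348). So did the first feature without TTF-derived array 1a (-0.97, adjusted p = 0.00126), so the missing call in these cells depends on the feature and on this array.

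Among the RGD-binding alpha chains, Itga8 fell and Itga2b rose, and Itga5 and Itgav were not called. Itga8 encodes alpha8, the nephronectin receptor chain of mesenchyme and smooth muscle. Its level was 12.71 and 12.69 in MEF, 4.86, 4.57, 5.45 and 5.36 in MEF-derived and 3.26, 3.77, 4.15 and 4.24 in TTF-derived ieSCs. The ieSC arrays lay in or at the edge of the dim end, and the difference from MEF was -8.24 ± 0.35 (adjusted p = 1.02e-07). TTF-derived minus MEF-derived was -1.21 ± 0.31 (adjusted p = 0.0142), in a range where levels carry little order, and the call was lost without MEF-derived sample 2 (-0.86, adjusted p = 0.0818).

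Itga2b encodes alphaIIb, the fibrinogen receptor chain of platelets and their precursors. It measured 6.53 and 6.26 in MEF, 7.41, 7.03, 7.64 and 7.66 in MEF-derived and 7.85, 8.16, 7.93 and 7.83 in TTF-derived cells. All ieSC arrays were above MEF at a low level, and the difference was 1.29 ± 0.26 (adjusted p = 0.00231). Beside it, the platelet markers Gp9 and Gp1ba were in the dim end in all groups, Pf4 fell (-5.46 ± 0.7, adjusted p = 0.000152) and Ppbp rose (0.85 ± 0.31, adjusted p = 0.047). The fibronectin receptor chain Itga5 gave -0.45 ± 0.2 (adjusted p = 0.0923) and Itgav, the common alpha chain of vitronectin receptors, 0.36 ± 0.19 (adjusted p = 0.157). Itga5 passed with either TTF-derived sample left out (adjusted p = 0.0126 without sample 1 and 0.0325 without sample 2), and Itgav passed without MEF-derived sample 1 (0.45, adjusted p = 0.038). In MEF-derived cells alone, Itgav gave 0.51 (adjusted p = 0.0745), which passed without MEF-derived sample 1 (0.69, adjusted p = 0.0157) or array 1a (0.57, adjusted p = 0.036). In TTF-derived cells Itga5 gave -0.53 (adjusted p = 0.0778), which passed without TTF-derived sample 1 (-0.77, adjusted p = 0.00862).

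Itga4 and Itga9 encode the related alpha4 and alpha9 chains, which bind Vcam1 and tenascin C among other ligands. Itga9 read 10.19 and 10.25 in MEF, 4.08, 4.12, 3.83 and 3.49 in MEF-derived and 4.16, 4.43, 4.01 and 3.9 in TTF-derived ieSCs. All 8 ieSC arrays were in the dim end, and the difference was -6.21 ± 0.23 (adjusted p = 5.48e-08). Itga9 passed the filter only through the MEF arrays. Itga4 was 9 on both MEF arrays, 7.79, 7.75, 7.2 and 7.35 in MEF-derived and 4.24, 4.58, 4.51 and 4.48 in TTF-derived cells. The 3 groups did not overlap, and the TTF-derived arrays were in the dim end while the MEF-derived ones were not. Against MEF, Itga4 gave -1.48 ± 0.23 in MEF-derived cells (adjusted p = 0.000459) and -4.55 ± 0.23 in TTF-derived cells (adjusted p = 3.5e-07). Its difference between the kinds of ieSC, -3.07 ± 0.18, was the largest of any member (adjusted p = 2.83e-06). The second Itga4 feature was in the dim end in all groups.

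The leukocyte chains are given beside markers of macrophages, which carry several of them. Of the 19 macrophage markers tested, 17 were lower and 1, Cd53, was higher in ieSCs, where 23.6% of all genes were lower and 25.9% higher. The log2 of their summed level was 16.62 to 16.66 on the MEF arrays, 12.25 to 12.36 on the MEF-derived and 11.97 to 12.24 on the TTF-derived arrays. C1qa, C1qc, Tyrobp, Laptm5, Mrc1, Ctss and Spi1 had group means in the dim end in both kinds of ieSC. Their place among the tested genes rested on the MEF arrays, so the selection favoured a fall for them. In such bulk samples, fewer cells of a type and less RNA per cell cannot be told apart, and the part of macrophage content in the leukocyte chains was not tested.

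Itgax encodes alphaX (CD11c) of dendritic cells and macrophages. It read 7.76 and 7.59 in MEF, 4.18, 4.21, 3.83 and 3.49 in MEF-derived and 3.86, 4.37, 4.83 and 3.41 in TTF-derived ieSCs. On all 8 ieSC arrays it was in the dim end, and the difference was -3.65 ± 0.6 (adjusted p = 0.000765). Itgax passed the filter only through the MEF arrays. Itgb2, the beta2 chain common to the leukocyte integrins, was 9.38 and 9.39 in MEF, 7.91, 7.91, 8.17 and 8.03 in MEF-derived and 7.31, 7.41, 7.53 and 7.59 in TTF-derived cells. Its groups did not overlap and were in the order MEF, MEF-derived, TTF-derived, with a difference from MEF of -1.65 ± 0.13 (adjusted p = 5.17e-06) that left it above the dim end.

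Itgam encodes alphaM (CD11b), the partner of beta2 on macrophages and neutrophils, and its 3 kept features did not give 1 answer. The brightest read 14.49 and 14.51 in MEF, 12.66, 12.67, 12.13 and 12.17 in MEF-derived and 11.97, 12.03, 11.33 and 11.15 in TTF-derived cells. This feature was lower on all ieSC arrays but stayed far above the dim end, and its difference was -2.48 ± 0.26 (adjusted p = 4.13e-05). The other features, near 6 to 7 on average in every group, gave -0.23 ± 0.17 (adjusted p = 0.318) and 0.13 ± 0.12 (adjusted p = 0.442). With the mean of the kept features the difference was -0.86 (adjusted p = 0.000468).

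Itgal, which encodes alphaL (CD11a) of lymphocytes and other leukocytes, was the leukocyte alpha chain that moved up. It measured 6.45 and 6.56 in MEF, 7.63, 7.68, 7.95 and 8.13 in MEF-derived and 7.37, 7.22, 7.65 and 7.67 in TTF-derived ieSCs. Every ieSC array was above MEF at a low level, and the difference was 1.16 ± 0.19 (adjusted p = 0.000718). A second feature was also called, at 0.87 ± 0.24, and the third was not, at 0.26 ± 0.3 (adjusted p = 0.531). Their mean gave 0.76 (adjusted p = 0.0138). The lymphocyte markers tested, Cd3e, Cd79a and Cd8a, did not pass (limma adjusted p = 0.202, 0.432 and 0.537). Itgad and Itgae were in the dim end in all groups, with group means of 3.46 to 4.29.

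The beta chains differed between the kinds of ieSC. Against MEF, 2 of the 7 tested were higher in both kinds of ieSC, Itgb7 and Itgb8. In TTF-derived cells the other 5 were called lower than MEF, and in MEF-derived cells 1 of them, Itgb2, was. There Itgb4 and Itgb5 fell just short, at -0.75 each (adjusted p = 0.0658 and 0.0631), and Itgb1 and Itgb3 gave 0.37 and -0.03. With the kinds of ieSC set directly against each other, 6 of 7 beta chains were lower in TTF-derived cells, where 19.3% of all genes were called lower. The median of these 7 differences was -1.16. Averaging the arrays of each name ended 3 of the 6 calls between the kinds, those of Itgb2 (adjusted p = 0.0828), Itgb4 (0.2) and Itgb5 (0.107).

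Itgb1 encodes beta1, the partner of the collagen-binding and laminin-binding alpha chains above. It read 14.46 and 14.58 in MEF, 15.1, 15.24, 14.62 and 14.61 in MEF-derived and 13.33, 13.35, 13.13 and 13.26 in TTF-derived ieSCs. All MEF-derived arrays were above both MEF arrays, by 0.37 ± 0.21 on average (adjusted p = 0.163), and all TTF-derived arrays were below them, by -1.25 ± 0.21 (adjusted p = 0.000876). TTF-derived minus MEF-derived was -1.63 ± 0.17 (adjusted p = 8.76e-05). The second Itgb1 feature had group means of 12.1, 12.56 and 10.79 in MEF, MEF-derived and TTF-derived cells, in the same order. The mean of both kinds against MEF was not called (-0.44 ± 0.19, adjusted p = 0.0826), but passed without MEF-derived sample 1 (-0.58, adjusted p = 0.00384), and the MEF-derived rise passed without MEF-derived sample 2 (0.65, adjusted p = 0.00892).

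Itgb3 and Itgb5 encode partners of alphaV in vitronectin receptors. Itgb3 measured 10.85 and 10.78 in MEF, 11.04, 10.86, 10.56 and 10.69 in MEF-derived and 9.53, 9.37, 9.28 and 9.27 in TTF-derived cells. The MEF-derived arrays lay around the MEF arrays, and the TTF-derived arrays were all lower, with -1.43 ± 0.15 between the kinds of ieSC (adjusted p = 7.95e-05). Itgb5 read 16.36 and 16.33 in MEF, 15.96, 15.95, 15.29 and 15.2 in MEF-derived and 14.74, 14.72, 14.07 and 14.01 in TTF-derived cells. The groups were separate, and sample 2 was below sample 1 in both kinds. TTF-derived minus MEF-derived was -1.22 ± 0.24 for Itgb5 (adjusted p = 0.00396), and against MEF the TTF-derived fall of -1.97 ± 0.3 passed (adjusted p = 0.000521) while the MEF-derived value of -0.75 ± 0.3 did not (adjusted p = 0.0631). Without MEF-derived sample 1 that value was -1.1 and passed (adjusted p = 0.0136).

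Itgb4, the partner of alpha6 in hemidesmosomes of epithelia, was 8.1 and 8.16 in MEF, 7.56, 7.63, 7 and 7.31 in MEF-derived and 7.04, 6.95, 6.17 and 6.27 in TTF-derived cells. All ieSC arrays were lower than MEF, and the kinds of ieSC overlapped. The difference from MEF was -1.14 ± 0.28 (adjusted p = 0.00753). Between the kinds it was -0.77 ± 0.25 (adjusted p = 0.0369), a call lost in 12 of 25 alternatives. It was lost with MEF array a or b left out (adjusted p = 0.0538 for each), with any of MEF-derived arrays 1a, 1b and 2b (0.0609, 0.0651 and 0.0647) or TTF-derived arrays 1b, 2a and 2b (0.0534, 0.0674 and 0.0678) left out, and without MEF-derived sample 1 (-0.55, adjusted p = 0.208). The value was -1.16 without TTF-derived sample 1 and -0.38 without TTF-derived sample 2 (adjusted p = 0.00375 and 0.201).

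Itgb8 encodes beta8, which with alphaV holds and activates latent TGF-beta. It read 5.37 and 5.6 in MEF, 8.26, 8.29, 9.72 and 9.75 in MEF-derived and 7.71, 7.89, 8.39 and 8.27 in TTF-derived ieSCs. Both kinds of ieSC were above MEF, and MEF-derived sample 2 was the highest, 1.46 above sample 1. The rise was 3.05 ± 0.43 (adjusted p = 0.000287). In TTF-derived cells it was 2.58 (adjusted p = 0.00158), a call lost on averaging the arrays of each name (adjusted p = 0.0663). The kinds of ieSC gave -0.94 ± 0.38 (adjusted p = 0.0867), which passed without MEF-derived sample 1 (-1.67, adjusted p = 0.00151). Itgb7, a partner of alpha4 and alphaE on lymphocytes, was 5.46 and 5.75 in MEF, 7.87, 7.83, 8.3 and 8.2 in MEF-derived and 6.88, 6.74, 6.94 and 7.01 in TTF-derived cells. Its groups did not overlap, with a rise over MEF of 1.87 ± 0.19 (adjusted p = 3.26e-05) and a difference of -1.16 ± 0.17 between the kinds (adjusted p = 0.000703). Itgb6, the epithelial partner of alphaV, was in the dim end, with group means of 3.71 to 4.85 over its 2 features.

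**Figure D2:**
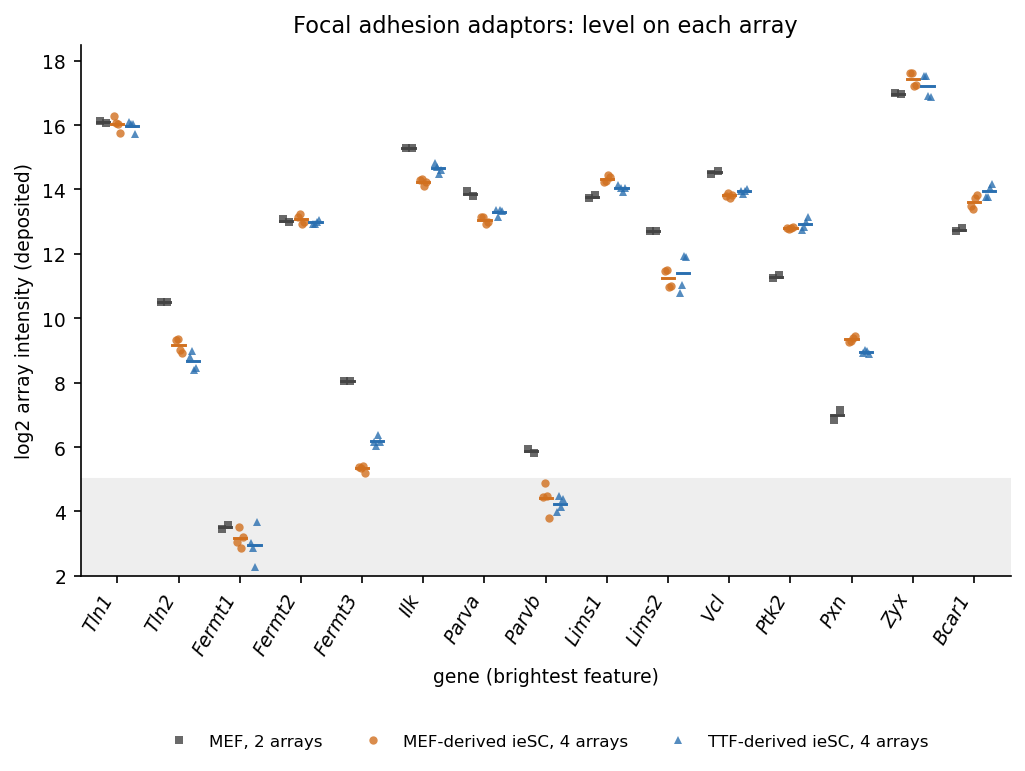
Log2 array intensity (vertical axis) of the 15 focal adhesion adaptors on every array, taking each gene's brightest feature. Squares are the 2 MEF arrays, circles the 4 MEF-derived and triangles the 4 TTF-derived ieSC arrays, bars are group means, and the grey band is the dim end below about 5.02. Group means of Tln1 lie between 15.97 and 16.08 and those of Fermt2 between 12.97 and 13.07, while Pxn and Ptk2 are higher and Tln2 and Fermt3 lower on every ieSC array than on both MEF arrays.

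The adaptors moved less than the integrin chains, between -2.29 and 2.17 on the log2 scale, and the activators split by gene. Tln1, the talin of most tissues, gave -0.08 ± 0.22 (adjusted p = 0.786) and Fermt2, the widely expressed kindlin, -0.01 ± 0.12 (adjusted p = 0.939). These features, the brightest of each gene, passed in none of the 4 comparisons of groups, while the second Tln1 feature passed for MEF-derived minus MEF (0.49 ± 0.18, adjusted p = 0.0466 over all kept features).

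Tln2, the second talin, prominent in muscle and brain, read 10.51 and 10.5 in MEF, 9.32, 9.37, 9.03 and 8.91 in MEF-derived and 8.81, 8.99, 8.4 and 8.46 in TTF-derived ieSCs. All ieSC arrays were lower than MEF, and the difference was -1.6 ± 0.19 (adjusted p = 0.000106). Its second, dimmer feature gave -0.37 ± 0.19 (adjusted p = 0.147), and the mean of both gave -0.98 (adjusted p = 0.00167). Fermt3, the kindlin of blood cells, was 8.04 and 8.06 in MEF, 5.39, 5.36, 5.42 and 5.19 in MEF-derived and 6.17, 6.03, 6.36 and 6.17 in TTF-derived cells. The groups did not overlap. Fermt3 fell by 2.29 ± 0.15 from MEF (adjusted p = 1.95e-06), beside the macrophage markers above, and it was higher in TTF-derived than in MEF-derived cells by 0.84 ± 0.14 (adjusted p = 0.00128). Fermt1, the kindlin of epithelia, was in the dim end, with group means of 2.96 to 3.52.

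The ILK, PINCH and parvin complex links the beta tail to actin. In ieSCs 4 of its 5 genes were called lower, where 23.6% of all genes were. Among these, Parvb passed the filter only through the MEF arrays, so its fall does not count as a result. Ilk, which encodes the pseudokinase at the centre of the complex, was 15.3 and 15.28 in MEF, 14.28, 14.34, 14.11 and 14.22 in MEF-derived and 14.83, 14.69, 14.49 and 14.6 in TTF-derived ieSCs. Its groups did not overlap, with MEF-derived cells the lowest, and the difference from MEF was -0.85 ± 0.13 (adjusted p = 0.000564). Lims2, which encodes PINCH-2, read 12.72 and 12.7 in MEF, 11.48, 11.5, 10.97 and 11 in MEF-derived and 10.77, 11.03, 11.94 and 11.9 in TTF-derived cells. All ieSC arrays were lower than MEF, by -1.38 ± 0.32 (adjusted p = 0.0058), and in TTF-derived cells the difference was -1.3 with both samples and -0.79 without sample 1 (adjusted p = 0.0178).

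Lims1, which encodes PINCH-1, was higher by 0.41 ± 0.12 (adjusted p = 0.0203), in the opposite direction to Lims2. The call was lost without MEF array a (0.36, adjusted p = 0.0636) and with the mean of its features (0.34, adjusted p = 0.0562), and in TTF-derived cells Lims1 was not called (0.27, adjusted p = 0.135). Parvb, the beta-parvin gene, was 5.93 and 5.81 in MEF, 4.45, 4.9, 4.47 and 3.81 in MEF-derived and 3.97, 4.48, 4.15 and 4.38 in TTF-derived cells. It went from just above the dim end into it, with a difference of -1.54 ± 0.4 (adjusted p = 0.01). Parvb passed the filter only through the MEF arrays, so its fall was built into its selection. Parva, the alpha-parvin gene, gave -0.7 ± 0.14 (adjusted p = 0.00209), and its 3 features were all called lower, at -0.6 to -1.41.

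Of the scaffold and signalling genes, Pxn, Ptk2 and Bcar1 rose together and Vcl fell. Pxn encodes paxillin, the docking protein on which the kinases of the adhesion meet. Its level was 6.83 and 7.14 in MEF, 9.27, 9.31, 9.38 and 9.45 in MEF-derived and 8.93, 9.03, 8.99 and 8.88 in TTF-derived ieSCs. Every ieSC array was above MEF, and the difference of 2.17 ± 0.16 was the largest rise among the adaptors (adjusted p = 3.44e-06). The kinds of ieSC gave -0.39 ± 0.14 (adjusted p = 0.0569), just short of the threshold and past it with either MEF array left out (adjusted p = 0.0184 each).

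Ptk2, which encodes focal adhesion kinase, read 11.24 and 11.35 in MEF, 12.81, 12.78, 12.79 and 12.83 in MEF-derived and 12.75, 12.85, 12.99 and 13.13 in TTF-derived cells. Its ieSC arrays were all higher, by 1.57 ± 0.13 (adjusted p = 7.91e-06, 2.97-fold), and all 3 Ptk2 features were called higher, by 0.81 to 1.57. Bcar1, which encodes the Ptk2 and Src substrate p130Cas, was 12.7 and 12.8 in MEF, 13.48, 13.4, 13.74 and 13.83 in MEF-derived and 13.77, 13.78, 14.04 and 14.17 in TTF-derived cells. It was higher on all ieSC arrays, by 1.03 ± 0.17 (adjusted p = 0.000715). Vcl, the actin-binding vinculin, fell by 0.65 ± 0.11 (adjusted p = 0.00111), and Zyx, the stress-fibre protein zyxin, gave 0.34 ± 0.21 (adjusted p = 0.217), which passed without TTF-derived sample 2 (0.49, adjusted p = 0.0242).

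**Figure D3:**
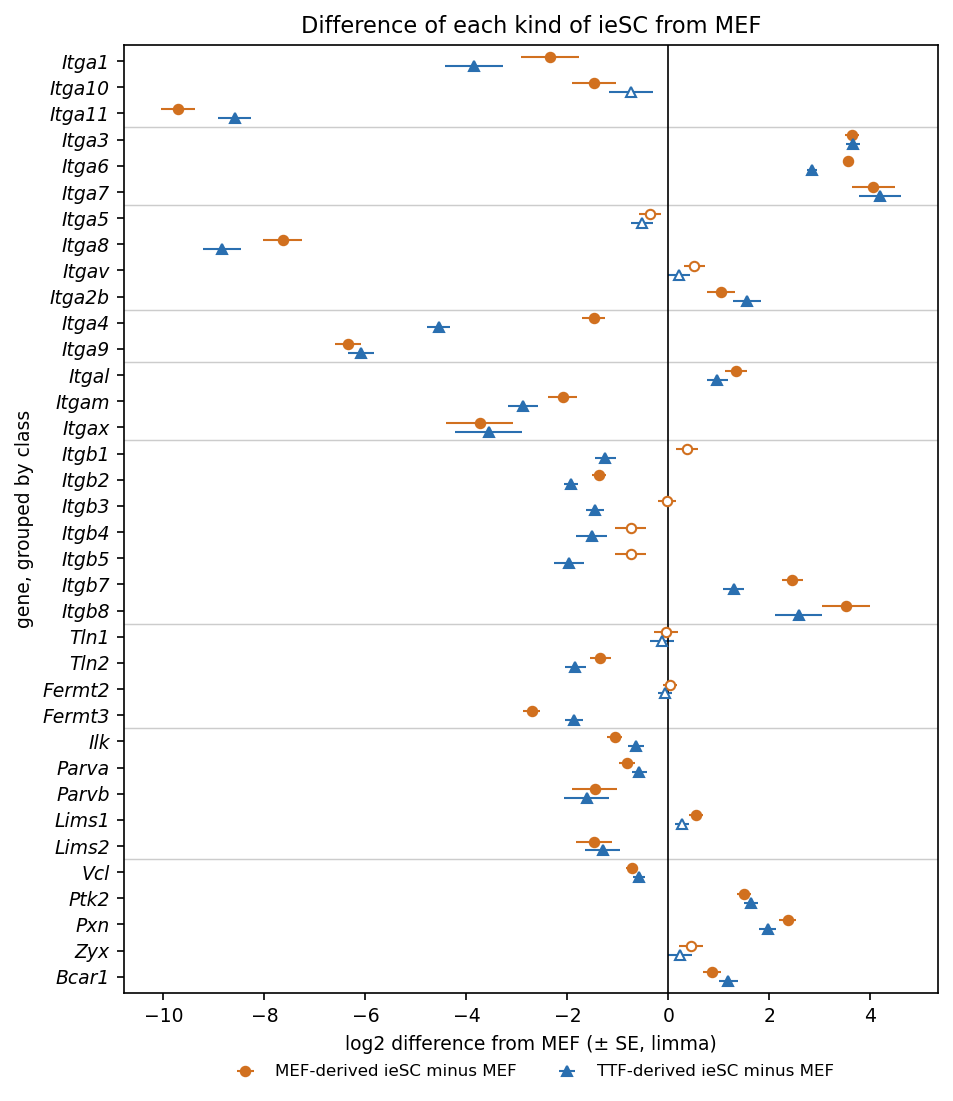
Log2 difference from MEF with its SE (horizontal axis) for the 36 tested members, grouped by class with grey lines between classes. Circles are MEF-derived and triangles TTF-derived ieSCs, and filled symbols passed the adjusted threshold of 0.05. The laminin-binding chains lie to the right, at 2.85 to 4.19, and the beta chains from Itgb1 to Itgb5 lie farther left in TTF-derived cells.

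Between the kinds of ieSC, 14 of the 36 members were called, 3 higher and 11 lower in TTF-derived cells, against 36.0% of all genes, 16.8% higher and 19.3% lower. The median was -0.192 over the members and -0.0452 over all genes. The count was 12 among the 22 integrin chains, with 11 lower and Itga11 higher, and 2 among the 14 adaptors, Fermt3 and Ilk, both higher. The brightest Ptk2 feature gave 0.13 (adjusted p = 0.448). Its other 2 features were called higher in TTF-derived cells (0.41 and 0.79, adjusted p = 0.00937 and 0.00334 over all kept features), and the mean of the 3 gave 0.44 (adjusted p = 0.0107). Parva and Itgav were not called by their brightest features (0.24 and -0.29). For each, another feature was called lower in TTF-derived cells (-0.3 and -0.39, adjusted p = 0.0327 and 0.0325 over all kept features). The 11 lower chains were Itga1, Itga4, Itga6, Itga8, Itgam and all tested beta chains except Itgb8. Averaging the arrays of each name before the fit left 6 called members, and taking the sample number as a block gave 23. The call of Itgam (-0.79 ± 0.23, adjusted p = 0.0266) was lost without MEF-derived sample 1 (-0.53, adjusted p = 0.188) or TTF-derived sample 2 (-0.41, adjusted p = 0.138), and that of Ilk (0.42 ± 0.12, adjusted p = 0.0221) without TTF-derived sample 1 (0.31, adjusted p = 0.0578) or MEF-derived sample 2 (0.34, adjusted p = 0.0814).

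Samples 1 and 2 of a kind also differed in many members. Fitted with a mean for each name, so that only the spread between arrays of one name enters, 18 members were called between the MEF-derived samples, 7 higher and 11 lower in sample 2, where 21.9% of all genes were called. Between the TTF-derived samples 15 were called, 8 higher and 7 lower, against 25.6% of all genes. At least 2-fold was reached by 1 member in the MEF-derived pair, Itgb8 (1.46 ± 0.1, adjusted p = 6.68e-05), where 3.83% of all genes reached it. It was reached by 2 in the TTF-derived pair, Itga1 and Lims2, against 4.62% of all genes. Itga7 was higher in sample 2 by 0.91 in MEF-derived and 0.98 in TTF-derived cells, and Itgb5 gave -0.71 and -0.69. Lims2 went opposite ways, -0.51 in MEF-derived and 1.02 in TTF-derived cells, and the difference between these was not tested.

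**Figure D4:**
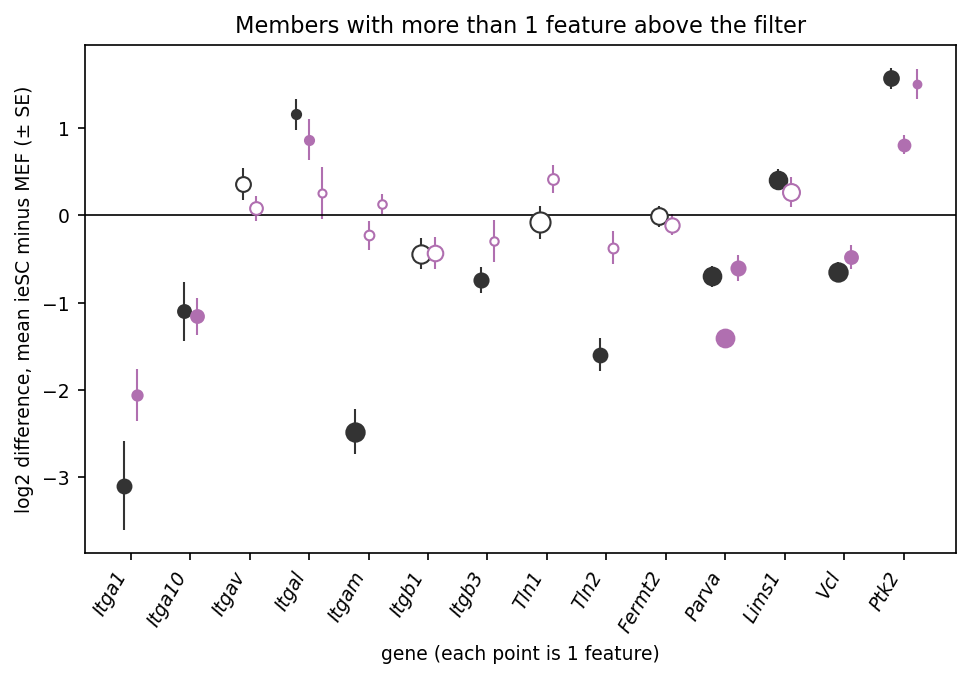
Log2 difference of the ieSC mean from MEF with its SE (vertical axis) for each feature of the 14 members with more than 1 kept feature, fitted over all kept features. Black points are the feature that stands for the gene and purple points the others. Point size grows with the mean level in MEF, and filled points passed the adjusted threshold of 0.05. Features of Ptk2, Parva and Itga1 lie on 1 side of 0, while those of Itgam spread from -2.48 to 0.13.

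Where a member had several kept features, they were compared. Among the 14 such members, all features were called in 1 direction for 5 (Itga1, Itga10, Parva, Ptk2 and Vcl), none was called for 4 (Fermt2, Itgav, Itgb1 and Tln1), and for 5 (Itgal, Itgam, Itgb3, Lims1 and Tln2) some were called and some were not. No member had features called in opposite directions. Over all 42617 kept features, 44.6% were called in this comparison. Features of a gene share its transcripts and are not replicates, and where they lie in the transcript was not used here.

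Other genes of the focal adhesion, from a list of 48, were near the share of all genes. Of the 44 tested, 8 were higher and 13 lower in ieSCs, 47.7% in all, with a median of -0.0725. Cd151, a membrane protein that binds the laminin-binding integrins, rose by 2.72 ± 0.22 (adjusted p = 6.53e-06), and Kank1, which binds talin at the edge of adhesions, by 2.19 ± 0.18 (adjusted p = 7.76e-06). Ptk2b, the kinase related to Ptk2, rose by 1.8 ± 0.11 (adjusted p = 8.68e-07), and Fyn, a Src-family kinase, by 1.39 ± 0.24 (adjusted p = 0.000972). Tgfb1i1 and Lpxn, the relatives of paxillin, went opposite to Pxn, with -4.21 ± 0.45 (adjusted p = 4.59e-05) and -3.49 ± 0.28 (adjusted p = 6.84e-06). Apbb1ip, the Rap1 partner that brings talin to integrins in blood cells, changed by -7.13 ± 0.33 (adjusted p = 1.89e-07) into the dim end, beside the macrophage markers. It passed the filter only through the MEF arrays, so its fall was built into its selection.

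Genes for integrin ligands fell more often than they rose. Of 28 tested from a list of 30, 4 were higher and 17 lower in ieSCs, 75.0% in all, with a median of -0.956, against 49.5% of all genes called, 25.9% higher and 23.6% lower. For the laminin-binding chains, Lama5 rose by 2.16 ± 0.18 (adjusted p = 9.23e-06), Lama2 fell to a level near the dim end (-5.12 ± 0.64, adjusted p = 0.000126), and Lama1 was higher than MEF in MEF-derived cells (2.54, adjusted p = 1.52e-05) and lower in TTF-derived cells (-0.95, adjusted p = 0.00812). For the collagen-binding chains, Col1a2 fell by 11.02 ± 0.51 (adjusted p = 1.83e-07) and Col1a1 by 0.46 ± 0.13 (adjusted p = 0.0169). For alpha8, the ligand gene Npnt (nephronectin) rose by 2.17 ± 0.5 (adjusted p = 0.0056) while Itga8 fell. For alpha4 and alpha9, Tnc (tenascin C) changed by -6.41 ± 0.39 (adjusted p = 1.07e-06) and Vcam1 by -1.99 ± 0.32 (adjusted p = 0.000726). In TTF-derived cells alone Vcam1 was not called (-0.76, adjusted p = 0.114). Spp1 (osteopontin), also on the ligand list, went the other way, by 1.63 ± 0.24 (adjusted p = 0.000378). Its rise was called in MEF-derived cells (2.91, adjusted p = 1.39e-05) and not in TTF-derived cells (0.35, adjusted p = 0.325). Fn1, fibronectin, gave 0.3 ± 0.11 (adjusted p = 0.0537). A list of 21 genes held actin genes, targets of serum response factor or YAP, and regulators such as Srf, Yap1 and Wwtr1. Of these, 1 (Wwtr1) was higher and 10 were lower in ieSCs, with a median of -0.39. The share called was 52.4%, against the same 49.5% of all genes, of which 25.9% were higher and 23.6% lower.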

How the data were processed

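The deposited table holds log2 array intensity of 62976 features on 10 arrays, 1 column per sample. The submitters' processing notes name limma, and other steps by the authors are not given in the sources used here. The deposited log2 columns have medians of 5.759 to 5.782 and nearly equal sorted values, as quantile-normalized columns have. Groups come from the source names in the labels. Symbols were updated through RefSeq (GRCm38.p6, names only).

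Features above the 40th percentile on at least 2 arrays were kept (42617). The test was limma 3.58.1 in R 4.3.3 (statmod 1.5.0), 3 group means over all 10 arrays, with arrays of one name as a random block (consensus correlation 0.606, 7 residual degrees of freedom). The number of arrays limits precision, with a median SE over genes of 0.174 (ieSC mean minus MEF) or 0.156 (TTF-derived minus MEF-derived). Values on every array are given for members called with a log2 difference of at least 1 between any 2 groups, by functional class. The members, the lists and this rule were chosen with earlier results of these data known. Alternatives varied the filter, the feature of a gene, the block, the normalization, the variance prior and the arrays used.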

Additional observations from a re-analysis of the deposited data

Results flagged for a closer look

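Itgb1, the common beta1 chain, differed between the kinds of ieSC in its difference from the same MEF arrays: all MEF-derived arrays were above and all TTF-derived arrays below both MEF arrays, and the direct comparison gave -1.63 (adjusted p = 8.76e-05 by limma). The MEF-derived rise of Itgb1 over MEF was not called (0.37 ± 0.21, limma adjusted p = 0.163). MEF-derived sample 2 read 14.62 and 14.61, close to the 14.58 of MEF array b. Each of the 4 TTF-derived arrays was below each of the 4 MEF-derived arrays. Dixon's test at the 95% level marked no array as far from the other 3 of its kind in the 72 sets of 4 arrays examined. Its chance rate of about 1 in 20 holds for independent values. Each set here holds 2 arrays of each of 2 names, which often lie close in pairs, so a single array can seldom be marked. No conclusion is drawn from this test.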

How the results depend on the processing

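Over 25 alternatives, all planned, and the 4 comparisons of groups, 3321 of 3488 values of single members kept their direction and side of the threshold, 71 passed newly, 61 no longer passed and 35 changed sign. No member that was called changed sign. Called members ranged from 23 to 33 for ieSC against MEF, 23 to 32 for each kind against MEF and 6 to 23 between the kinds. The 6 came from averaging the arrays of each name, which leaves 5 values for 3 groups, and there all genes called fell to 5493, 5899, 4763 and 2421 in the 4 comparisons. The 23 came from the replicate block on sample number. With 2 pairs, the numbers were not taken to pair the samples. The differences of sample 2 from sample 1 in the 2 kinds correlated at 0.297 over 16650 genes, and of 13 members called between samples 1 and 2 in both kinds, 12 had one sign, with Lims2 the exception. This count was not made over all genes, so it cannot be read as particular to the members.

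Sign changes all lay in values that were not called, and the cause was not tested. With the mean of the kept features, Tln1 gave 0.17 (both kinds), 0.22 (MEF-derived) and 0.11 (TTF-derived) against MEF, Itgb3 0.06 and Fermt2 -0.06 (MEF-derived against MEF), and Itgal 0.05 and Vcl -0.07 between the kinds. Without one array, MEF-derived against MEF ranged from -0.08 to 0.02 for Itgb3, -0.02 to 0.09 for Fermt2 and -0.11 to 0.03 for Tln1, Fermt2 in both kinds from -0.07 to 0.04, and between the kinds Itgax from -0.14 to 0.51 and Tln1 from -0.15 to 0.01. Without MEF-derived sample 1, Fermt2 against MEF gave -0.08, and between the kinds Itga7 gave -0.32, Tln1 0.08, Fermt2 0.02 and Parvb 0.11. Without MEF-derived sample 2, Fermt2 (both kinds) gave 0.04, Itgb3 0.13 and Tln1 0.09 against MEF, and between the kinds Itga3 gave -0.09, Itgax -0.08 and Lims2 -0.08. Without TTF-derived sample 1, Fermt2 (both kinds) gave 0.01 and Zyx (TTF-derived) -0.08 against MEF, and Itga3 -0.01 between the kinds. Without TTF-derived sample 2, values between the kinds were -0.36 for Itga7, 0.07 for Itga5, 0.04 for Tln1, -0.34 for Lims2, 0 for Ptk2 and 0.09 for Zyx.

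Averaging ended 7 calls for ieSC against MEF (Itga1, Itga10, Itgb3, Itgb4, Itgb5, Lims1 and Lims2), 4 for MEF-derived against MEF (Itga1, Lims1, Lims2 and Bcar1), 6 for TTF-derived against MEF (Itgal, Itgb4, Itgb8, Ilk, Parva and Lims2) and 8 between the kinds (Itga1, Itga11, Itga8, Itgam, Itgb2, Itgb4, Itgb5 and Ilk). Members in the dim end have no measured order there, and signal over background is not recorded.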
